A study of Mus musculus with 2 samples.

Results

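Malat1, Neat1, Miat, Rmst, Snhg11 and Pantr1 are 6 long non-coding RNAs of the brain that are best known from the nucleus. They were taken by gene symbol from 55536 annotated genes, of which 10155 belong to a long non-coding RNA class, and their 45 annotated transcripts from 141767. The members were chosen from an earlier look at these data, in which RNAs of this kind lay lower in one of the libraries. Their replicate ratios are therefore described here and not tested. The RNA was not separated into nucleus and cytoplasm, so the nuclear location is background knowledge and was not measured.

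The data are total RNA-seq of the hippocampus of male mice of the strain B6CASTF1/J, an F1 hybrid of C57BL/6J and CAST/EiJ, at an age of 25 days. There is 1 group of 2 biological replicates, prepared from 300 ng RNA apiece, to which ERCC spike-ins, synthetic RNAs of known amount, were added. No mutation or treatment is named in the labels, and no comparison between conditions is possible. The labels give both replicates the same donor identifier, so separate animals cannot be assumed, and their spread could be technical alone. The tissue is labelled as a layer of the hippocampus, without saying which layer.

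Annotated genes received 30635891 expected counts (estimated reads) in the library of replicate 1 and 35713471 in that of replicate 2. Markers of several hippocampal fields were present together, which does not show which layer was taken. Prox1, of dentate granule cells, was at 47.1 ± 7.99 TPM, a level corrected for transcript length and depth (SD, n = 2). Wfs1, of CA1, was at 77.0 ± 5.87 TPM (SD, n = 2), and Grik4, of CA3, at 25.0 ± 1.26 TPM (SD, n = 2), while Gabra6, of cerebellar granule cells, was at 0.21 TPM in replicate 1 and 0.08 in replicate 2.

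Malat1 is an abundant RNA of nuclear speckles, the bodies where splicing factors gather. Neat1 is the scaffold of paraspeckles. It is made as a short form and as a long form, and the long form builds the body. Malat1 and the long form of Neat1 lack the usual poly(A) tail at the mature end: RNase P cuts the precursor, and U-rich tracts fold with an A-rich tract into a triple helix that protects the end. Miat, also called Gomafu, stays in the nucleus of neurons and carries repeats that resemble the branch point of introns, which the splicing factor SF1 binds. Rmst is a neural RNA known to work with the transcription factor SOX2. Pantr1 lies beside Pou3f3, a transcription factor gene of the developing cortex and hippocampus, and Snhg11 is a host gene of small nucleolar RNAs.

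The 3′ elements of Malat1 and Neat1 are shown because they mark the mature ends of both RNAs. They come from the GENCODE M21 transcripts (mm10), which follow the C57BL/6J reference and were not read from these mice. Capitals mark a first U-rich motif, a second U-rich motif and the A-rich tract, written with T.
Malat1, in Malat1-201, chr19:5795976-5796071, minus strand: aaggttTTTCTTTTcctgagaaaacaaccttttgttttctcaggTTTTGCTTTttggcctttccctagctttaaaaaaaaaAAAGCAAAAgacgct
Neat1, in Neat1-201, chr19:5824708-5824803, minus strand: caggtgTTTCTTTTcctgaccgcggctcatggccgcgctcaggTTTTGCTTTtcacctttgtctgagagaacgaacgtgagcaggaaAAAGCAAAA
The motifs TTTCTTTT, TTTTGCTTT and AAAGCAAAA were written down after the ends of these transcripts had been read. They stood in that order, with gaps of 10 to 150 and 5 to 150 bases, in 2 of the 141767 annotated transcripts on the transcript strand, Malat1-201 and Neat1-201. Singly, TTTCTTTT occurred in 12.3% of transcripts, TTTTGCTTT in 2.61% and AAAGCAAAA in 2.77%. From the first motif to the A-rich tract the element spans 84 bases in Malat1 and 90 in Neat1. Neat1-201 ends with its A-rich tract, while the model Malat1-201 runs on for 292 bases past it, a stretch that holds the small RNA released from the Malat1 precursor.

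The Miat repeats are shown because they are the feature for which this RNA is known. Capitals mark TACTAAC, searched on the transcript strand.
Miat, copies 2 and 3, chr5:112217311-112217358, minus strand: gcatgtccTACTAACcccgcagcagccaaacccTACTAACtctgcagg
Miat, copies 4 to 6, chr5:112216754-112216810, minus strand: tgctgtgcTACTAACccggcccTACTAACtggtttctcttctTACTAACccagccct
Miat-201 held 6 copies within 689 bases, from position 4538 to 5226 of the transcript, all in its last exon of 7006 bases. Of 773 annotated transcripts of 8000 to 9500 bases, 154 (19.9%) held at least 1 copy and 2 held at least 6. Those 2 were Miat-201 and Miat-205. In the whole annotation 5 transcripts of 4 genes held at least 6 copies, with 8 in Gfap-202, 8 in Slc8a1-204 and 6 in AC154442.1-202. Among the other members, Neat1-201 held 1 copy. The first 3 copies in Miat lie inside a small RNA annotated as Gm27627 and the last 3 inside another, Gm27882. Gm27627 was given 78.97 and 77.05 expected counts in replicates 1 and 2 and Gm27882 was listed at 0 in both, against 16665.8 and 12484.7 for Miat.

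**Figure D1:**
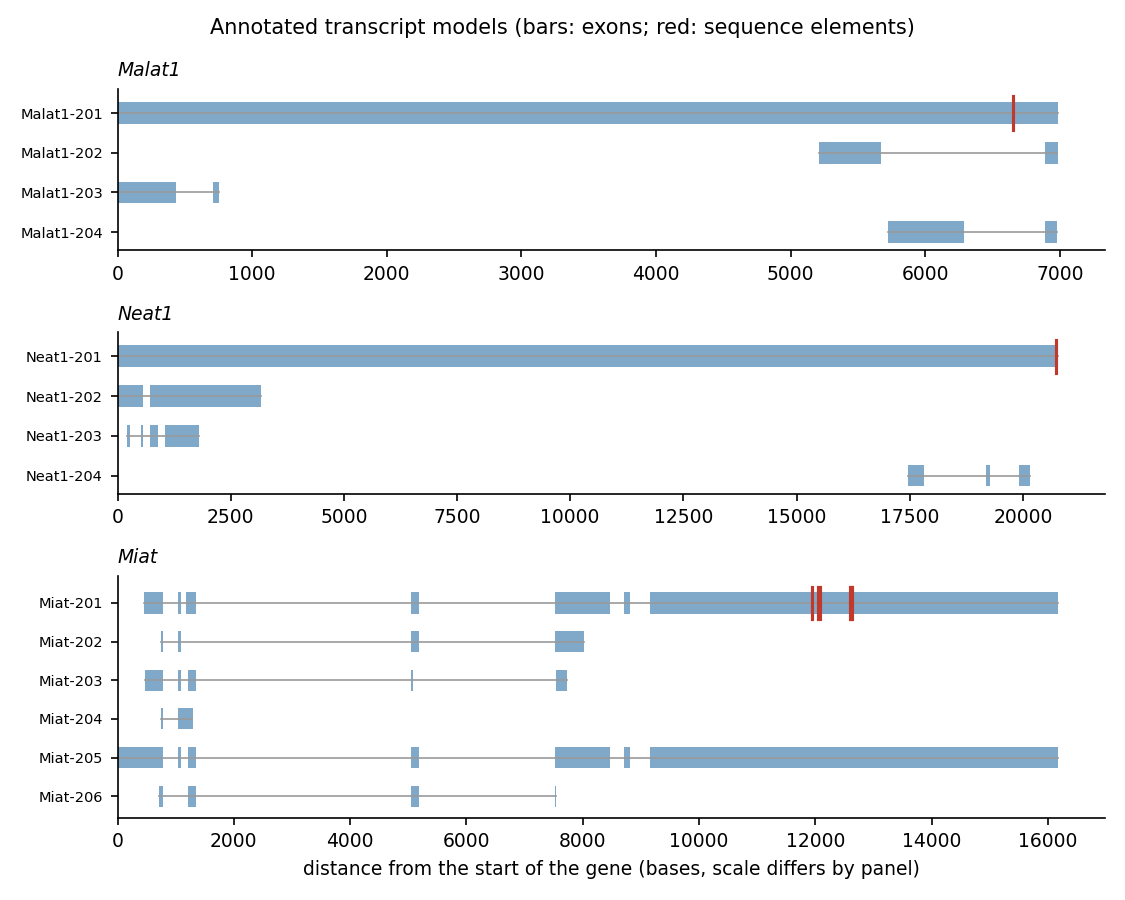
Annotated transcript models of Malat1, Neat1 and Miat, drawn 5′ to 3′ against the distance from the start of the gene in bases, with a scale of its own in each panel. Bars are exons, thin lines are introns, and red marks show the 3′ elements of Malat1-201 and Neat1-201 and the 6 repeats of Miat-201. The element lies at the very end of Neat1-201 and 292 bases before the end of Malat1-201, and the short models of all 3 genes lack the marked features.

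All 6 members were detected at a mean of at least 1 TPM, a level that 15231 of 55536 annotated genes (27.4%) reached. Malat1 stood far above the others. It had 6247.67 TPM in replicate 1 and 3856.92 in replicate 2 (mean 5052 ± 1691, SD, n = 2), which placed it eleventh among all genes and second among long non-coding RNAs. Of all expected counts it took 1.45% (95% Wilson interval 1.45 to 1.46%) in the first library and 0.875% (0.872 to 0.878%) in the second. These intervals cover counting error only. Rmrp, the RNA of the RNase MRP enzyme, was the long non-coding RNA nearest to Malat1 in level, at 2918.84 and 2740.55 TPM, and Gm42418 was next at 2408.18 and 2528.6. Malat1 was the higher in both replicates.

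Snhg11 was the next member, with 231.52 TPM in replicate 1 and 149.85 in replicate 2 (191 ± 57.7, SD, n = 2). Although it is known as a non-coding host gene, GENCODE M21 classes it as protein-coding. Miat followed with 123.95 and 85.71 TPM (105 ± 27.0, SD, n = 2). Replicate 1 was the higher for both genes, and their values did not overlap. Bc1, a cytoplasmic RNA of neurons, was nearest to Snhg11 in level at 228.94 and 221.53 TPM. Mir124a-1hg, a host transcript of the neuronal microRNA miR-124, was nearest to Miat at 130.44 and 77.85 TPM, and Gm3764 was second for both Miat and Snhg11 at 150.74 and 93.63. Likeness here is the distance of the 2 replicates on the scale of log2(TPM + 0.1).

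Pantr1 had 72.10 and 73.58 TPM (72.8 ± 1.05, SD, n = 2) and was the member whose replicates lay closest together. Neat1 had 18.11 TPM in replicate 1 and 12.38 in replicate 2 (15.2 ± 4.05, SD, n = 2). Rmst had 15.71 and 12.01 TPM (13.9 ± 2.62, SD, n = 2), so the ranges of Neat1 and Rmst overlap and their order is not resolved. In the kallisto table it is turned round, with 22.6 ± 4.25 TPM for Neat1 and 28.3 ± 1.13 for Rmst (SD, n = 2). There the values of Neat1, 25.6 and 19.6, do not overlap those of Rmst, 29.1 and 27.5. Miat and Pantr1 overlapped in the kallisto table only, at 178 and 116 TPM for Miat against 118 and 122 for Pantr1. The other neighbours in the order did not overlap in either table. The long non-coding RNAs nearest in level were Trerf1 and 1810026B05Rik for Neat1, Gm6145 and Gm11175 for Rmst, and Gm7292 and Cct6a for Pantr1, with classes as M21 gives them.

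**Figure D2:**
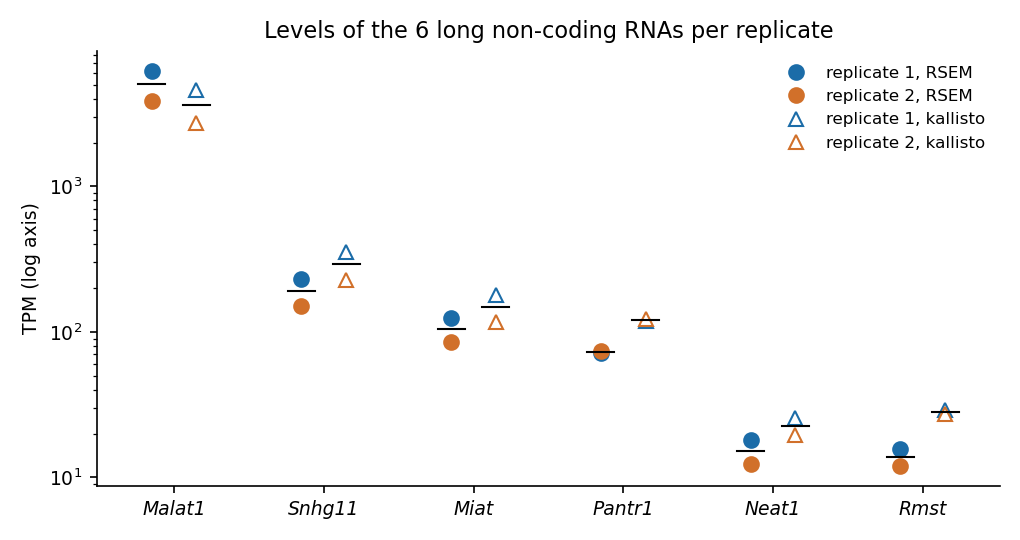
TPM of the 6 members on a log axis, in replicate 1 (blue) and replicate 2 (orange), from the RSEM gene table (filled circles) and the kallisto transcript table summed to genes (open triangles). Short lines are means of 2 replicates. Malat1 stands 26.5-fold above Snhg11 by mean RSEM TPM, and replicate 1 is the higher for every member except Pantr1.

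Together the members made up 0.671% of all TPM in replicate 1 and 0.419% in replicate 2 (0.545 ± 0.178%, SD, n = 2). Malat1 alone was 93.1% and 92.0% of that sum. Of the TPM of all genes of the long non-coding classes, with Snhg11 counted among them, the 6 held 19.5% and 13.3%. Malat1 and Neat1 are neighbours on chromosome 19, with 22035 bases between them and the same strand, yet stood far apart in level. The TPM of Malat1 was 345 times that of Neat1 in replicate 1 and 312 times in replicate 2 by RSEM, but 178 and 139 times in the kallisto table. By expected counts the ratio was 211 and 200. Dividing all counts of each gene by the length of its longest transcript, a choice made after seeing the data, gave Malat1 3107 and 1855 TPM in place of the values above, and 4.90 and 3.09 TPM for Neat1.

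Malat1 lies at chr19:5795690-5802672 on the minus strand and has 4 transcript models. Malat1-201 is a single exon of 6983 bases, and the other 3 are spliced models of 485 to 656 bases whose exons lie wholly inside it. RSEM gave Malat1-201 45.9% of the gene's TPM in replicate 1 and 44.1% in replicate 2, and the short models together 54.1% and 55.9%. Of the expected counts, however, the short models held 7.61% and 8.21%, and in the kallisto table they held 0.084% and 0.096% of TPM. The level of Malat1 thus depends on how reads were shared among nested models. No short model contains any of the 84 bases of the 3′ element printed above.

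Neat1 lies at chr19:5824708-5845478 on the minus strand. Its long form, Neat1-201, is a single exon of 20771 bases, and Neat1-202 is a spliced model of 3004 bases that starts at nearly the same base. The short model had 15.07 TPM in replicate 1 and 9.99 in replicate 2, and the long one 2.77 and 1.65. Neat1-202 was therefore 5.44 and 6.05 times as abundant as Neat1-201 per length. In the kallisto table the ratio was 4.89 and 4.95. The long form still held 56.5% and 53.5% of the gene's expected counts because of its length, with 57.7 and 40.4 counts per kb. The exons of the short model lie wholly inside the long one, so reads over the shared 5′ region were divided by the programs. Kallisto also gave another model, Neat1-203, none of the gene's TPM in replicate 1 and 22.1% in replicate 2, where RSEM gave it 1.44% and 4.52%.

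Miat lies at chr5:112213228-112229395 on the minus strand. Miat-201, of 7 exons and 8758 bases, was the leading model with 69.9% and 64.1% of the gene's TPM. The short model Miat-202, of 747 bases, had 18.0% and 19.1% and holds no TACTAAC. Miat-205, the other model with the 6 repeats, had 2.90% and 2.75%. The models that carry the printed repeats thus made up most of Miat by TPM in both replicates, and the kallisto table gave Miat-201 71.2% and 68.4%.

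Snhg11 lies at chr2:158375638-158386145 on the plus strand. Snhg11-201, of 5 exons and 5864 bases, had 83.1% and 81.5% of its TPM, and 90.0% and 89.1% in the kallisto table. Snhg11-204, a model with a retained intron, had 6.78% and 8.18%. The small nucleolar RNAs annotated inside the gene, Gm25129 and Gm25187, had 6 and 5 counts and 0 and 0 counts in replicates 1 and 2. A count of 0 allows up to 3 counts.

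Rmst lies at chr10:92071037-92165170 and Pantr1 at chr1:42590782-42694842, both on the minus strand. They span 94134 and 104061 bases and have 14 and 12 models, and for both genes the leading model depended on the table. RSEM put Rmst-201 first, with 37.2% and 27.7% of TPM, and kallisto put Rmst-205 first, with 28.5% and 24.0%. For Pantr1, RSEM put Pantr1-202 first, with 41.9% and 28.3%, while kallisto gave that model almost nothing and put Pantr1-209 first, with 56.7% and 54.1%. The other 4 members had the same leading model in both replicates and both tables.

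**Figure D3:**
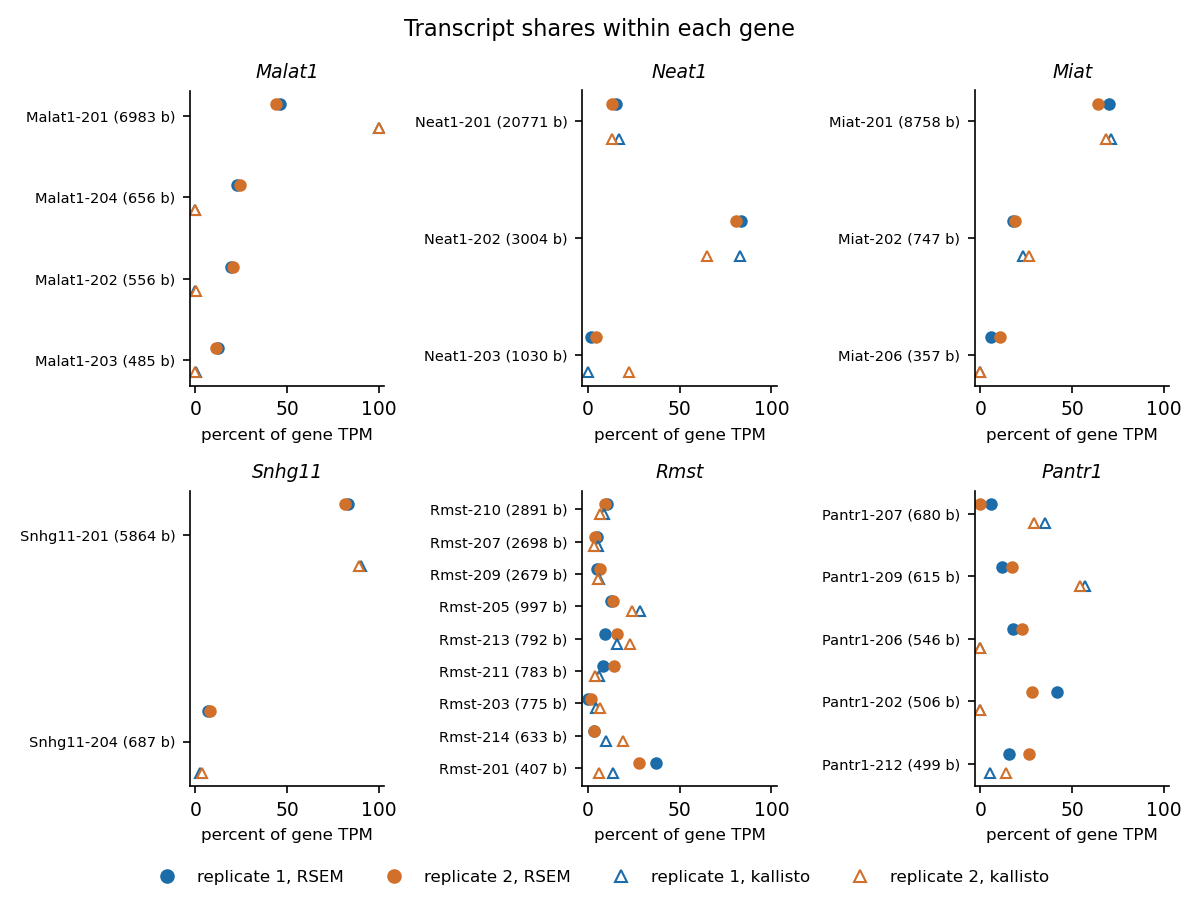
Percent of each gene's TPM held by its transcript models, for models with at least 5% in any library or table, with the model length in bases beside the name. Filled circles are RSEM and open triangles kallisto, in replicate 1 (blue) and replicate 2 (orange). The tables part most for Malat1, where kallisto gives Malat1-201 99.9% in both replicates, and for Pantr1.

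The members differ in build. By the model with the most counts, Neat1-201 was longer than that of all but 2 of the 326 long non-coding RNA genes compared, which are the 325 of those classes that averaged 100 or more expected counts, and Snhg11. Miat-201 was longer than all but 8 and Malat1-201 than all but 16, whereas 315 had a longer model than Pantr1-202, at 506 bases. The median over the 326 was 2636 bases with 2 exons and a GC content of 47.7%. Miat-201, with 54.9% GC, was the only member model above that median. Below it were Rmst-210 with 41.6%, Malat1-201 with 42.5%, Pantr1-202 with 44.5%, Snhg11-201 with 44.8% and Neat1-201 with 47.3%. The members thus differ widely in length, and in base composition Miat stands apart.

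Genes that overlap the members were given few expected counts. Reads over bases shared with a member were divided by the program, so a low count there need not mean few reads. Same-strand genes inside Rmst held 13.6 and 22.07 expected counts in replicates 1 and 2, or 4.42% and 7.59% of the count of Rmst. The share was smaller for the other members with such genes. There were 24 overlapping genes in all, 20 on the same strand and 4 on the opposite one. The highest count on the opposite strand was 13, for Gm26953 over Miat. Gm37376, opposite Malat1, had 4 and 6 counts, or 8.83 and 13.2 per kb, against 63794 and 44744 per kb for Malat1. The microRNAs annotated inside Rmst, Mir135a-2 and Mir1251, were listed at 0, and such short RNAs are poorly held by libraries of this kind.

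The replicates were set side by side as the log2 ratio of replicate 2 over replicate 1 after scaling of the expected counts by TMM, which assumes that most genes are level. Malat1 had 445476 and 312445 expected counts and a log2 ratio of -0.70 (95% counting interval -0.71 to -0.69). Neat1 had 2108.92 and 1561.07 counts and -0.62 (-0.72 to -0.53). Malat1 and Neat1 were lower in replicate 2 by similar ratios, although Malat1 was far more abundant in both tables.

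Miat had 16665.8 and 12484.7 counts and a log2 ratio of -0.61 (-0.64 to -0.57). Snhg11 had 24238 and 18079 counts and -0.61 (-0.64 to -0.58). These ratios lie within each other's counting intervals.

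Rmst had 307.4 and 290.93 counts and a log2 ratio of -0.27 (-0.50 to -0.03), with the widest interval of the 6. Pantr1 had 702 and 836 counts and 0.06 (-0.08 to 0.21), and its sign turns to -0.14 when the libraries are scaled to the spike-ins. Pantr1 was the only one of the 6 with a ratio above 0 by TMM, and these intervals cover counting error only. Its neighbour Pou3f3, at 30.93 and 30.86 TPM, had 0.04, and the TPM of Pantr1 was 2.33 and 2.38 times that of Pou3f3. By expected counts, not corrected for length, Pantr1 had 0.149 and 0.151 times as many as Pou3f3. With all its counts divided by the length of its longest transcript, Pantr1 would stand at 17.0 and 17.2 TPM, below Pou3f3.

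Of the 6 members, 4 were over 1.5-fold lower in replicate 2, which held for 241 of all 12719 genes that averaged 100 or more expected counts (1.89%) and for 28 of 138 lincRNA genes (20.3%). The members were chosen from this difference, so nothing is read from their count. With 2 libraries of 1 group the ratio has no replicate check of its own. The median was -0.61 for the members, 0.04 for all genes, 0.04 for protein-coding genes and -0.15 for lincRNA genes. Of 11905 protein-coding genes, 43 passed the same fold downward, and Snhg11, classed as protein-coding, is among them. It was chosen with the other members from this difference, so nothing is read from its place. In the kallisto table its log2 ratio was -0.55, short of 1.5-fold.

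Gene classes made up largely of unspliced or intronic loci were lower in replicate 2 as well. Genes of the class TEC, unspliced loci awaiting experimental evidence, had a median of -0.90, with 125 of 174 over 1.5-fold lower. Sense-intronic genes had a median of -0.80, with 14 of 20 over 1.5-fold lower. Transcript models with a retained intron took 3.64% of expected counts in the first library and 2.71% in the second. Spike-ins took 0.367% and 0.414% of the counts on spike-ins and annotated genes together. Whether any of these has a part in the members' ratios was not tested.

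**Figure D4:**
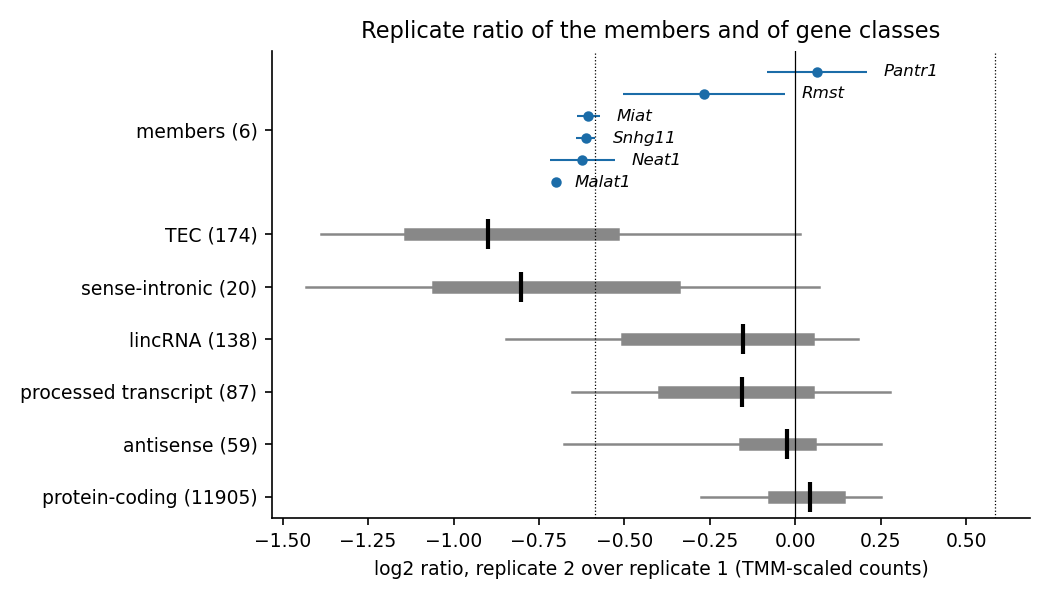
Log2 ratio of replicate 2 over replicate 1 for the 6 members (blue points with 95% counting intervals) and for gene classes (black tick, median; thick bar, middle 50% of genes; thin line, from the 5th to the 95th percentile; number of genes in brackets). Dotted lines mark 1.5-fold. Malat1, Neat1, Snhg11 and Miat lie just past the lower line, Rmst and Pantr1 inside it, and the TEC and sense-intronic medians lie lower than any member.

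Scaling to the spike-ins moved the median of all genes from 0.04 to -0.17, and the members with it, to -0.91 for Malat1, -0.83 for Neat1, -0.81 for Miat, -0.82 for Snhg11, -0.47 for Rmst and -0.14 for Pantr1. This scaling shifts every gene by the same amount, so no gene could change its place against the median. As by TMM, 5 of the 6 were below the median and Pantr1 slightly above it. By the deposited TPM values, 2 members passed 1.5-fold, Malat1 and Snhg11, against 2.85% of 12719 genes. With kallisto 2 passed, Malat1 and Neat1, against 4.13% of the 13088 genes with enough counts in that table. The first 4 members lie so near the threshold that their count depends on the table.

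For listed partners of these RNAs, the RNA level of the gene was measured and not the protein. All 31 genes of a list of paraspeckle proteins and other partners were found at 1 TPM or more. Their median log2 ratio was -0.05, with a range from -0.24 to 0.14, and 21 of 31 were lower in replicate 2. All but Rpph1 are classed as protein-coding. In that class 4511 of 11905 genes were lower, with a median of 0.04. Over 1.5-fold apart in either direction were 0 of 31, against 1.89% of all genes lower and 0.409% higher. Among protein-coding genes 0.361% were over 1.5-fold lower, so the 0 is near the share of that class. The genes of the core paraspeckle proteins, Nono, Sfpq and Pspc1, were at 65.4 ± 2.79, 111 ± 16.0 and 23.3 ± 0.46 TPM (SD, n = 2). Their log2 ratios were 0.02, -0.18 and -0.08. Neat1 itself was at 15.2 ± 4.05 TPM by RSEM and 22.6 ± 4.25 in the kallisto table (SD, n = 2). The levels of the listed genes are by RSEM, so only the first value of Neat1 can be set beside them. The most abundant of the list were Rpph1, the RNA of the RNase P that cuts the Malat1 and Neat1 ends, at 7403 ± 25.8 TPM, Hnrnpk at 273 ± 12.2 and Matr3 at 250 ± 15.7 (SD, n = 2). Tardbp, an RNA-binding protein, had the lowest ratio of those named, at -0.24.

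Among partners of single members, Mettl16, which binds the Malat1 triple helix, was at 11.4 ± 0.071 TPM with a ratio of -0.02, and Srsf1, a speckle protein, at 90.1 ± 5.73 TPM with -0.10 (SD, n = 2). Sf1, which binds branch points and the Miat repeats, was at 84.3 ± 10.6 TPM with -0.05, and Celf3, another Miat partner, at 78.5 ± 8.34 TPM with -0.21 (SD, n = 2). Sox2, the partner of Rmst, was at 23.0 ± 0.21 TPM with 0.06 (SD, n = 2). These partners were picked after their values were seen and their ratios are given as values alone.

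A list of 16 other long RNAs of the nucleus had 13 with enough counts, of which 11 were lower in replicate 2 and 3 over 1.5-fold lower, with a median of -0.39. Over all 325 long non-coding RNA genes with as many counts, 221 were lower and 60 (18.5%) over 1.5-fold lower, so the count of 3 is near the share of the class. Kcnq1ot1, the imprinted antisense RNA, had -0.88, Ftx, of the X inactivation centre, -0.69, and Meg3, the imprinted RNA of neurons, -0.64 at 1257 and 823 TPM. Rn7sk, the small nuclear RNA that restrains transcription elongation, was the most abundant at 59471 ± 3558 TPM (SD, n = 2), with -0.08. Snhg14, the long host transcript of the Prader-Willi region, was at 669 ± 140 TPM (SD, n = 2) with -0.39. Not every nuclear RNA of the list was lower: Peg13 had 0.08 and Tug1 0.07 by TMM, and both turn negative under spike-in scaling with the median of all genes.

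Of 18 host genes and cytoplasmic long non-coding RNAs listed, 15 were found and 10 had enough counts, with a median of -0.13, 7 lower and 1 over 1.5-fold lower, against the 18.5% of all long non-coding RNA genes. That one was Snhg17, at -0.61, which lies 14057 bases from Snhg11 on the other strand. Snhg1 had -0.30. The most abundant, 2900097C17Rik, had 0.14 at 468 ± 17.8 TPM (SD, n = 2), Gas5 had -0.18 at 93.9 ± 6.95 TPM and Zfas1 had -0.08 at 22.0 ± 0.49 TPM.

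**Figure D5:**
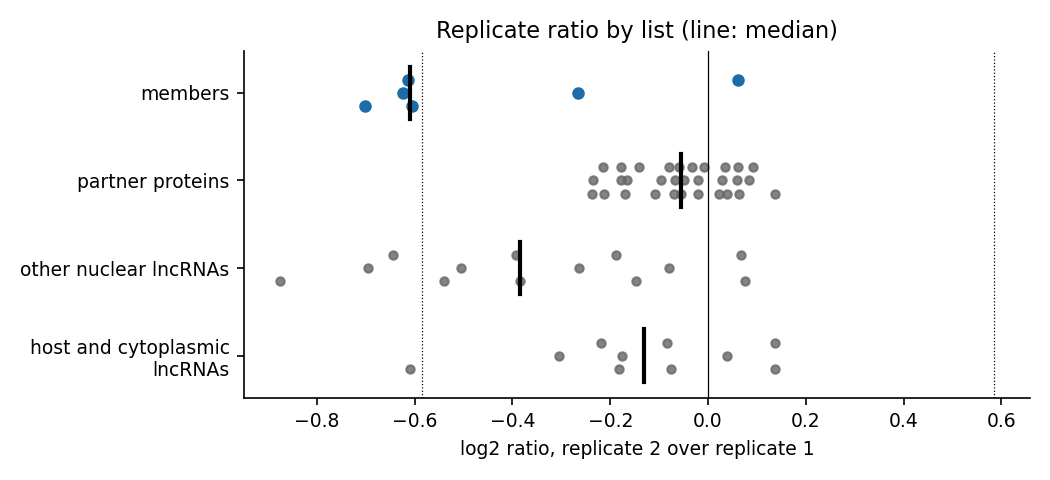
Log2 ratio of replicate 2 over replicate 1 for the 6 members and the measured genes of the 3 lists, 31, 13 and 10 genes, with black lines at the medians of -0.61, -0.05, -0.39 and -0.13 and dotted lines at 1.5-fold. The genes of the partner list, measured as RNA, all lie between -0.24 and 0.14, while the members and the other nuclear RNAs spread further down.

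The nearest genes at 1 TPM or more on either side of the members had these ratios. Frmd8, beside Neat1, was at 6.92 ± 0.28 TPM with a ratio of 0.04 (SD, n = 2). Ralgapb, on one side of Snhg11, had 0.05 and Crybb1, beside Miat, 0.18. The other side of Miat held C130026L21Rik, with -0.17, and Rmst lay between Tmpo, with -0.06, and Nedd1, with -0.24. AC122898.1, which starts 82 bases from Pantr1 on the other strand, was at 2.84 ± 0.33 TPM with -0.19 (SD, n = 2), and Gm28175, on the other side, had -0.05. The nearest gene on the other side of Snhg11, Snhg17, had -0.61 on 293.16 and 218.69 counts. Its TPM values, 5.77 and 4.89, lay closer together than its counts, whereas Snhg11 had -0.63 by the deposited TPM.

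Markers of the cell types of the tissue had ratios of both signs. Of 28 markers, 25 had enough counts, with log2 ratios from -0.25 to 0.78 and a median of 0.08. In replicate 2, 7 of the 25 were lower and 0 over 1.5-fold lower. The lowest were Prox1, of dentate granule cells, at 52.79 and 41.49 TPM, and Cldn5, of endothelium, at 24.39 and 19.92 TPM, both with -0.25. The other marker of dentate granule cells, C1ql2, went the other way, with 0.10 at 36.27 and 37.77 TPM. The neuronal gene Rbfox3 had 0.04 and the astrocyte gene Slc1a2 -0.02. Haemoglobin Hba-a1, of red blood cells, was the 1 marker over 1.5-fold higher in replicate 2, at 246.95 and 403.25 TPM, a ratio of 0.78. The part of these markers in the members' ratios was not tested. In bulk tissue, fewer cells of a type and less RNA per cell cannot be told apart.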

How the data were processed

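Total RNA-seq libraries of 1 group, 2 replicates, were analysed from gene and transcript tables on mm10 with GENCODE M21. Per the file headers, the gene table and one transcript table have the columns of RSEM and the other transcript table those of kallisto. The aligner and program versions were not given in the sources used here. Per the file headers, the deposited expected counts share out reads that match several features. The deposited TPM values divide these by an effective length, which raises short models. The deposited RSEM table also gives each transcript's percent of its gene's TPM. The mm10 reference is that of C57BL/6J, 1 parent strain of these mice, and the effect on mapping was not tested.

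Here expected counts were rounded and scaled by TMM with edgeR 4.0.16 under R 4.3.3, adding a prior count of 0.5. Spike-ins and numbered rows (6 and 2 counts) stayed out. Ratios were computed for genes averaging 100 or more expected counts. Counting intervals are 95% and, like Wilson intervals, cover counting error only. The same ratio formula, in code separate from that of the printed ratios, was run on simulated counts, with the outcome not reported here. No test between groups was possible and no p-values are given. Alternatives were DESeq2 1.42.0 size factors, spike-in scaling, deposited TPM, the kallisto table, other filters, prior counts and thresholds, and each replicate alone. The levels by longest transcript and the alternatives for the summed share were chosen after seeing the data. Members, lists and motifs were chosen with earlier results of these data known. Named genes are all members, models with at least 5% of a gene, the 3 highest and 2 largest ratios of each list, the 2 long non-coding RNAs nearest in level, and the nearest gene on each side at 1 TPM or more. Some genes that this rule names are not reported here. Other partners and single members of the lists were picked after their values were seen. Python 3.11.15 with pandas 2.3.3 and matplotlib 3.10.9 did the rest.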

Additional observations from a re-analysis of the deposited data

How the results depend on the processing

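The count of 4 members over 1.5-fold lower in replicate 2 was also 4 with DESeq2 size factors, spike-in scaling and a looser filter. Spike-in scaling lowers every ratio by the same amount, so it could not reduce the count. The looser filter leaves the members' ratios unchanged, and DESeq2 size factors moved their median only from -0.61 to -0.60. The count was 2 by the deposited TPM, 2 with kallisto and 0 at a threshold of 2-fold. Of all 12719 genes, 241 (1.89%) were over 1.5-fold lower, against 362 (2.85%) by the deposited TPM and 533 (4.19%) by spike-in scaling. At 2-fold, 82 (0.645%) were lower. The kallisto table had 540 of 13088 genes (4.13%), and a minimum count of 10 gave 1862 of 18255 (10.2%). The members' median of -0.61 was -0.82 by spike-in scaling and -0.54 by the deposited TPM. By spike-in scaling the median was -0.26 for genes of the partner list and -0.59 for other nuclear RNAs, with all genes at -0.17. The summed share of 0.545% of TPM was 1.28% of expected counts and 0.274% by the longest transcript length, and 0.419 to 0.671% with 1 replicate left out. The cause of each shift was not tested. No paired analysis was possible because there is 1 group. Depth limits Rmst most, at 307.4 and 290.93 counts.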
